A study of Mus musculus with 4 samples.

Results

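The genes described here are 10 genes of the actin cytoskeleton and its contractile apparatus. They are Acta2 of the actins, Tagln, Cnn1 and Cnn2 of the calponin family, the tropomyosins Tpm1 and Tpm2, the myosin II chains Myl9 and Myh9, and Actn1 and Vcl, which crosslink actin filaments and anchor them at adhesions. Their rows were taken by symbol, through the RefSeq identifiers. The list itself was put together with earlier results of these data known, so counts of its genes beside all genes are a description. A row was matched for 8 of the 10 genes among the 13085 genes measured, and Cnn1 and Myl9 were not analysed here.

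RNA-seq was done on stable lines of 3T3-L1, a murine preadipocyte line that turns into lipid-laden adipocytes when it is given an adipogenic mixture. FLAG-CACUL1 cells overexpress CACUL1, a cullin-domain protein that the study investigates as a repressor of PPARγ, and FLAG cells carry the empty FLAG vector. sh-CACUL1 cells express a short hairpin RNA against CACUL1, and the hairpin of sh-Luc cells is directed at luciferase. All 4 lines received rosiglitazone (5 µM), IBMX (0.5 mM), dexamethasone (1 µg/mL) and insulin (5 µg/mL) to start adipogenesis, and RNA was taken on day 8. The FLAG vectors were selected with G418 and the hairpin vectors with hygromycin B, so each condition was compared with the control of its own vector and drug. Each group had 1 sample, so no difference below has a replicate check and no p-value is given. Each sample is also 1 line of drug-resistant cells, so a difference between lines and an effect of CACUL1 cannot be told apart.

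Values are FPKM, fragment counts corrected for the length of the transcript and for the mapped fragments of the library, so levels of different genes are on 1 scale. The steps between low FPKM values gave depths of some 14900000 fragments for FLAG, 14700000 for FLAG-CACUL1, 24800000 for sh-Luc and 15600000 for sh-CACUL1. Intervals below are 95% exact Poisson intervals on the fragments estimated from these depths, and they cover counting error only. Differences are log2 ratios of FPKM + 1, and a gene was called at 2-fold or more. Where 4 FPKM values stand without sample names, they run from FLAG to FLAG-CACUL1, then sh-Luc, then sh-CACUL1, and a pair of log2 ratios gives the overexpression comparison before the hairpin comparison. Gene positions are those of GENCODE M21 on GRCm38. Cacul1, the targeted gene, was at 9.61 FPKM in FLAG against 11.8 in FLAG-CACUL1, and 10.2 in sh-Luc against 5.39 in sh-CACUL1. Its log2 ratio to the matched control was 0.27 with the overexpression vector and -0.82 with the hairpin, both under the 2-fold cut-off. The bulk RNA cannot tell fewer cells of a type from less RNA per cell.

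Actin filaments are polymers of actin along which tropomyosin lies, and myosin II pulls on them. Bundles of such filaments form the stress fibers of fibroblasts, which are crosslinked by α-actinin and tied to the adhesions by vinculin, and calponin-family proteins bind along them. Preadipocytes are spread cells with stress fibers, and these are replaced by cortical actin as the cells round up and store lipid. Many genes of the apparatus are targets of SRF, a transcription factor that binds the CArG box and whose cofactors, the MRTFs, are held out of the nucleus by monomeric actin. TEAD factors, the DNA-binding partners of YAP and TAZ, are another route by which tension on the cytoskeleton reaches the genes.

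Promoter sequences of 9 of the 10 genes were in the RefSeq-based table on build GRCm38.p6, all but Tagln. The 250 bases before each start were searched on both strands for a CArG box (CC, then 6 bases of A or T, then GG), for the TEAD motif CATTCC or GGAATG, and for TATAAA. A CArG box was found in 3 of the 9 windows, those of Cnn2, Vcl and Myl9, against 1.47% of all 32851 promoters. The TEAD motif was in 3 windows, those of Acta2, Tpm1 and Vcl, against 12.6% of all promoters, and TATAAA was in that of Myh9, against 12.4%. The windows end at the RefSeq start, and 217 of the 250 bases in Acta2, 193 in Tpm1 and 211 in Tpm2 lie inside the GENCODE gene. Little of these windows is therefore upstream of both starts. The TEAD matches of Acta2 (-146 to -141) and Tpm1 (-56 to -51) fall inside the GENCODE gene, and that of Vcl does not. A match describes the letters only, and the absence of one says nothing of a site elsewhere. The Cnn2 and Vcl sequences are shown because they hold the same 10 bases as their CArG box while the 2 genes had unlike levels over the samples, as given below. Capitals mark the CArG box and, in Vcl, also the TEAD motif, and these matches do not overlap. A CArG box can itself contain TATAAA, but none of the 3 found does. Cnn2 is chr10:79988350-79988583 and Vcl is chr14:20929148-20929397, both on the plus strand and written 5′ to 3′. The Cnn2 sequence stops where the GENCODE gene begins, 16 bases short of the RefSeq start.

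Cnn2: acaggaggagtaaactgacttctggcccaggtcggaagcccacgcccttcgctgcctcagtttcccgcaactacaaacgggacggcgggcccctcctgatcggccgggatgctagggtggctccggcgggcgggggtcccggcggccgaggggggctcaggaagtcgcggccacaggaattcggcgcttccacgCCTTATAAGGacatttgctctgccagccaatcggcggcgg

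Vcl: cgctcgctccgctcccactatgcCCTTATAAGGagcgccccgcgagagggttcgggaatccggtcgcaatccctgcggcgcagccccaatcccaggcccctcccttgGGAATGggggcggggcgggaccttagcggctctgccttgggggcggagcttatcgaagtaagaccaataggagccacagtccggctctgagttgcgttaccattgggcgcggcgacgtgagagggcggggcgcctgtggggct

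Counted from the RefSeq start, where -1 is the base before it, the CArG box lay at -56 to -47 in Cnn2 and at -227 to -218 in Vcl. The TEAD motif of Vcl lay at -143 to -138.

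The 8 genes did not share 1 order over the samples, though most were lowest in sh-CACUL1. In the values as deposited, FLAG-CACUL1 and sh-Luc were the pair of highest samples for 5 of the 8 genes. These were Acta2, Cnn2, Tpm1, Myh9 and Actn1, and this order held for 31.5% of all genes. Myh9 was only 1.16-fold higher in sh-Luc than in FLAG, and its log2 ratio turned to -0.08 with median-of-ratios scaling. sh-CACUL1 was the lowest sample for 6 of the 8, the same 5 and Tpm2, against 41.6% of all genes. The summed FPKM of the 8 genes was 273 in FLAG against 453 in FLAG-CACUL1, and 550.5 in sh-Luc against 110 in sh-CACUL1.

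**Figure D1:**
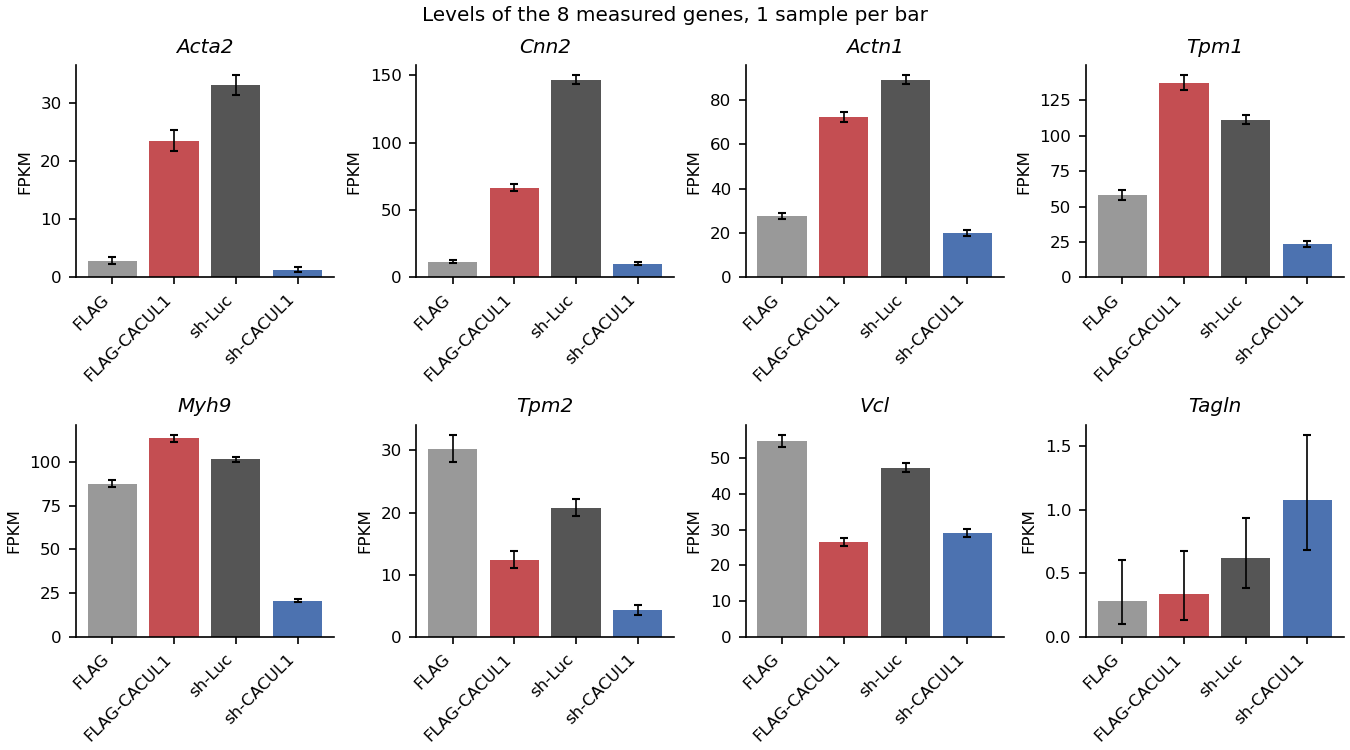
FPKM of the 8 measured genes in the 4 samples, 1 bar per sample, with 95% counting intervals as error bars. Acta2 and Cnn2 were high only in FLAG-CACUL1 and sh-Luc, Tpm2 and Vcl were highest in FLAG, and Tagln did not exceed 1.08 FPKM.

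Acta2 encodes smooth muscle α-actin, the actin of smooth muscle cells and of the stress fibers of myofibroblasts. It lies at chr19:34241090-34255590 on the minus strand. Its level was 2.90 FPKM in FLAG (2.29 to 3.59) against 23.5 in FLAG-CACUL1 (21.8 to 25.4), and 33.1 in sh-Luc (31.4 to 34.7) against 1.27 in sh-CACUL1 (0.889 to 1.74). FLAG-CACUL1 and sh-Luc were thus high and the other 2 samples were low, and no pair of intervals overlapped. Acta2 ranked 8832nd of the genes in FLAG, 2901st in FLAG-CACUL1, 2181st in sh-Luc and 10026th in sh-CACUL1. The log2 ratio was 2.65 ± 0.26 (95% counting half-width) in FLAG-CACUL1 against FLAG, 6.29-fold, and -3.91 ± 0.27 in sh-CACUL1 against sh-Luc, 15.0-fold. The pseudocount weighs on the low sh-CACUL1 value, and the latter ratio was -4.60 with a pseudocount of 0.1 FPKM and -4.70 without one. The 2 controls differed as well, with sh-Luc 8.74-fold above FLAG.

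Among the other actins, 3 of 5 were measured. None was at least 2-fold different between FLAG-CACUL1 and FLAG, against 14.7% of all genes. Actb, cytoplasmic β-actin, was at 343 FPKM in FLAG against 584 in FLAG-CACUL1, and 730.4 in sh-Luc against 288 in sh-CACUL1. Actg1, cytoplasmic γ-actin, was at 491, 612, 938 and 371 FPKM. Both followed the order of Acta2 with smaller differences, of 2.53-fold each between sh-CACUL1 and sh-Luc, which median-of-ratios scaling brought to -0.89 on the log2 scale, under the cut-off, without a change of direction. Of the 31-base stretches of their transcripts, 35.1% in Actb and 57.1% in Actg1 also occur in other genes, against 1.5% in Acta2, so the values of the cytoplasmic actins are less certain. Acta2 amounted to 0.846% of Actb in FLAG against 4.02% in FLAG-CACUL1, and 4.53% in sh-Luc against 0.442% in sh-CACUL1. These within-sample ratios do not change when a sample is scaled by 1 factor, but quantile normalization can change them. As deposited, they differed 4.76-fold between FLAG-CACUL1 and FLAG and 10.2-fold between sh-Luc and sh-CACUL1.

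Cnn2 encodes calponin 2, an actin-binding protein of smooth muscle and non-muscle cells, at chr10:79988584-79996062 on the plus strand, just downstream of the sequence printed above. Its level was 11.6 FPKM in FLAG (10.5 to 12.8) against 66.6 in FLAG-CACUL1 (63.9 to 69.4), and 147 in sh-Luc (143 to 150) against 10.1 in sh-CACUL1 (9.12 to 11.2). The low samples, FLAG and sh-CACUL1, had overlapping intervals, and both high samples stood apart from them and from each other. FLAG-CACUL1 had 5.36-fold more Cnn2 than FLAG (log2 ratio 2.42 ± 0.14) and sh-CACUL1 had 13.3-fold less than sh-Luc (-3.73 ± 0.14). Between the controls it differed 11.7-fold, more than between FLAG-CACUL1 and FLAG.

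Tagln, at chr9:45929619-45936058 on the minus strand, encodes transgelin or SM22α, a calponin-family protein that is abundant in smooth muscle. It was near the limit of detection, with 0.282 FPKM in FLAG (0.102 to 0.607) against 0.333 in FLAG-CACUL1 (0.132 to 0.677), and 0.620 in sh-Luc (0.385 to 0.930) against 1.08 in sh-CACUL1 (0.684 to 1.59). These values stand for about 6, 7, 22 and 24 fragments. Neighbours in this order had overlapping intervals, and no comparison with the matched control reached 2-fold. The direction between FLAG-CACUL1 and FLAG, 0.06 on the log2 scale, was lost under quantile normalization.

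Of the 3 other calponin-family genes, Cnn3 and Tagln2 were measured. Both were at least 2-fold lower in sh-CACUL1 than in sh-Luc, against 16.4% of all genes. Cnn3, calponin 3, was at 37.8 FPKM in FLAG against 92.5 in FLAG-CACUL1, and 198 in sh-Luc against 48.7 in sh-CACUL1, with log2 ratios of 1.27 and -2.00 in the overexpression and hairpin comparisons. Tagln2, transgelin 2, the form of non-muscle cells, was at 134, 172, 100.4 and 21.8 FPKM, with log2 ratios of 0.36 and -2.15. Cnn3 thus had the order of Cnn2 for its 2 highest samples, and Tagln2 was low in sh-CACUL1 alone.

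Tpm1 and Tpm2 encode tropomyosins, coiled-coil dimers that run along the actin filament and control the access of myosin to it. Tpm1, at chr9:67022590-67049406 on the minus strand and counted over 10 RefSeq transcripts in 1 row, was at 58.1 FPKM in FLAG (55.0 to 61.4) against 137 in FLAG-CACUL1 (133 to 143), and 111 in sh-Luc (108 to 115) against 23.5 in sh-CACUL1 (21.5 to 25.6). Tpm2, at chr4:43514711-43523765 on the minus strand with 3 transcripts in its row, was at 30.3 FPKM in FLAG (28.1 to 32.5) against 12.4 in FLAG-CACUL1 (11.0 to 13.8), and 20.8 in sh-Luc (19.4 to 22.2) against 4.30 in sh-CACUL1 (3.52 to 5.17). Both were lowest in sh-CACUL1, whereas FLAG-CACUL1 was the highest sample for Tpm1 and the second lowest for Tpm2. Against FLAG, FLAG-CACUL1 had 2.34-fold more Tpm1 (log2 ratio 1.23 ± 0.09) and 2.34-fold less Tpm2 (-1.23 ± 0.18). Against sh-Luc, sh-CACUL1 had 4.59-fold less Tpm1 (-2.20 ± 0.13) and 4.11-fold less Tpm2 (-2.04 ± 0.24). The ratio of Tpm1 to Tpm2 was therefore 1.92 in FLAG against 11.1 in FLAG-CACUL1, and 5.35 in sh-Luc against 5.45 in sh-CACUL1, so it differed between overexpression and its control and was nearly equal in the 2 hairpin lines. The isoforms within each row were not separated.

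Of the 6 other thin-filament genes, all measured, 3 were at least 2-fold lower in sh-CACUL1 than in sh-Luc, against 16.4% of all genes. None differed 2-fold between FLAG-CACUL1 and FLAG, against 14.7%. Cald1, caldesmon, which binds actin and tropomyosin, was at 114 FPKM in FLAG against 186 in FLAG-CACUL1, and 174 in sh-Luc against 43.5 in sh-CACUL1 (log2 ratios 0.70 and -1.98). Tpm3 was at 60.7, 117, 144 and 43.9 FPKM (0.94 and -1.69). Tpm4 was at 156, 98.4, 121 and 42.7 FPKM (-0.66 and -1.48). Tpm4 had the order of Tpm2 over the samples, and Cald1 that of Tpm1.

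Myh9 encodes the heavy chain of non-muscle myosin IIA, the main motor of stress fibers, at chr15:77760587-77842175 on the minus strand. Its level was 87.7 FPKM in FLAG (86.0 to 89.5) against 114 in FLAG-CACUL1 (112 to 116), and 102 in sh-Luc (100.3 to 103) against 20.7 in sh-CACUL1 (19.9 to 21.5). Only sh-CACUL1 stood far from the rest. The log2 ratio was -2.24 ± 0.06 in sh-CACUL1 against sh-Luc, 4.74-fold, and 0.37 ± 0.04 in FLAG-CACUL1 against FLAG, 1.29-fold and under the cut-off. Relative to Actb, Myh9 was 25.6% in FLAG against 19.5% in FLAG-CACUL1, and 13.9% in sh-Luc against 7.19% in sh-CACUL1.

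Of the 9 other myosin II genes, 8 were measured. Between sh-CACUL1 and sh-Luc, Myl12a and Myl12b were at least 2-fold lower, as were 16.4% of all genes. Myh11 was at least 2-fold higher, as were 4.94%. The median log2 ratio was -0.27, which turned to 0.17 under median-of-ratios scaling. Myl12a, a regulatory light chain of non-muscle myosin II, was at 100.4 FPKM in FLAG against 145 in FLAG-CACUL1, and 182 in sh-Luc against 50.01 in sh-CACUL1 (-1.84 in the hairpin comparison). Myl12b, its close homolog, was at 77.1, 155, 190.1 and 85.3 FPKM, and its log2 ratios of 1.00 and -1.15 both fell under the cut-off with median-of-ratios scaling, in the same directions. Myh11, the heavy chain of smooth muscle myosin, did not exceed 1.92 FPKM. Myl12a and Myh9 were therefore lowest in sh-CACUL1. Myl12b was lowest in FLAG, though its levels there and in sh-CACUL1 were close. In the hairpin comparison 3 of the 8 list genes had log2 ratios above 0. Of these, Myh10, another myosin II heavy chain, was at 11.8, 6.43, 20.2 and 31.7 FPKM and so highest in sh-CACUL1 (0.63, under the cut-off).

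Actn1 encodes α-actinin-1, which crosslinks actin filaments into bundles, at chr12:80167547-80260371 on the minus strand. Its level was 27.5 FPKM in FLAG (26.1 to 28.9) against 72.1 in FLAG-CACUL1 (69.9 to 74.5), and 88.9 in sh-Luc (87.0 to 90.9) against 20.0 in sh-CACUL1 (18.8 to 21.2). It had the sample order of Acta2 and Cnn2, with the intervals of all 4 samples apart. The differences were 2.57-fold higher in FLAG-CACUL1 (log2 ratio 1.36 ± 0.08), 4.29-fold lower in sh-CACUL1 (-2.10 ± 0.09) and 3.16-fold higher in sh-Luc than in FLAG (1.66 ± 0.08).

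Vcl encodes vinculin, which ties actin filaments to talin at focal adhesions, at chr14:20929398-21033676 on the plus strand. Its level was 55.0 FPKM in FLAG (53.3 to 56.7) against 26.5 in FLAG-CACUL1 (25.3 to 27.7), and 47.4 in sh-Luc (46.3 to 48.7) against 29.0 in sh-CACUL1 (27.9 to 30.2). Both controls were high and both lines with a CACUL1 construct were low, as for Tpm2, but the lowest sample was FLAG-CACUL1 and not sh-CACUL1. FLAG-CACUL1 had 2.04-fold less Vcl than FLAG, and the counting interval of the log2 ratio, -1.10 to -0.95, reached across the cut-off. In sh-CACUL1 it was 1.61-fold lower than in sh-Luc (-0.69 ± 0.07), under the cut-off. The ratio of Cnn2 to Vcl was 0.211 in FLAG against 2.52 in FLAG-CACUL1, and 3.09 in sh-Luc against 0.349 in sh-CACUL1. Both upstream sequences hold the same CArG box, and its part in these levels was not tested.

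Of 23 other crosslinker and adhesion genes, 22 were measured. Of these, 16 were at least 2-fold lower in sh-CACUL1 than in sh-Luc, against 16.4% of all genes. None was higher, and the median log2 ratio was -1.36. The count of lower genes was 11 under quantile normalization and under median-of-ratios scaling, against 1084 and 1016 of all 13085 genes. Csrp2, a LIM protein of smooth muscle, had the largest difference of the list, at 18.8 FPKM in FLAG against 6.33 in FLAG-CACUL1, and 57.4 in sh-Luc against 2.47 in sh-CACUL1 (log2 ratio -4.07 in the hairpin comparison and -1.43 in the overexpression comparison). Tgfb1i1, the adhesion protein Hic-5, was at 4.09, 8.67, 9.98 and 2.27 FPKM (-1.75 against sh-Luc). Enah, which promotes filament elongation, was at 5.68, 12.5, 13.3 and 3.29 FPKM (-1.74 against sh-Luc). Between FLAG-CACUL1 and FLAG, 1 gene of the list was at least 2-fold higher and 2 were lower. Enah was that gene, and its 1.02 became 0.88 with median-of-ratios scaling. The adhesion genes thus shared the low level in sh-CACUL1 with most of the 8 genes. All but 3 of the 22 were within 2-fold of FLAG in FLAG-CACUL1. These 3 are near the share over all genes, of which 14.7% were at least 2-fold different.

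In FLAG-CACUL1 against FLAG, 6 of the 8 genes were at least 2-fold different, against 14.7% of all 13085 genes and 17.6% of the 7886 genes with a mean of at least 5 FPKM. Acta2, Cnn2, Tpm1 and Actn1 were higher, as were 7.51% of all genes, and Tpm2 and Vcl were lower, as were 7.22%. The median log2 ratio of the 8 was 0.80 and that of all genes was 0.09. Myh9 and Tagln were within 2-fold.

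In sh-CACUL1 against sh-Luc, 6 of the 8 genes were at least 2-fold different, against 21.3% of all genes and 26.2% of those with a mean of at least 5 FPKM. All 6, namely Acta2, Cnn2, Tpm1, Tpm2, Myh9 and Actn1, were lower, as were 16.4% of all genes, and none was higher, against 4.94%. Their ratios lay between -3.91 and -2.04 on the log2 scale. The median was -2.15 for the 8 genes and -0.30 for all genes, so the median of all genes lay below 0 too, and median-of-ratios scaling brought these medians to -1.71 and -0.002.

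The 2 controls carry no CACUL1 construct, and their comparison shares a sample with each of the others. In sh-Luc against FLAG, 3 of the 8 genes were at least 2-fold different, against 21.0% of all genes and 24.9% of those with a mean of at least 5 FPKM. Acta2, Cnn2 and Actn1 were higher, as were 12.4% of all genes, and none was lower, against 8.58%. Acta2, Cnn2 and Actn1 thus differed more between the controls than between FLAG-CACUL1 and FLAG.

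**Figure D2:**
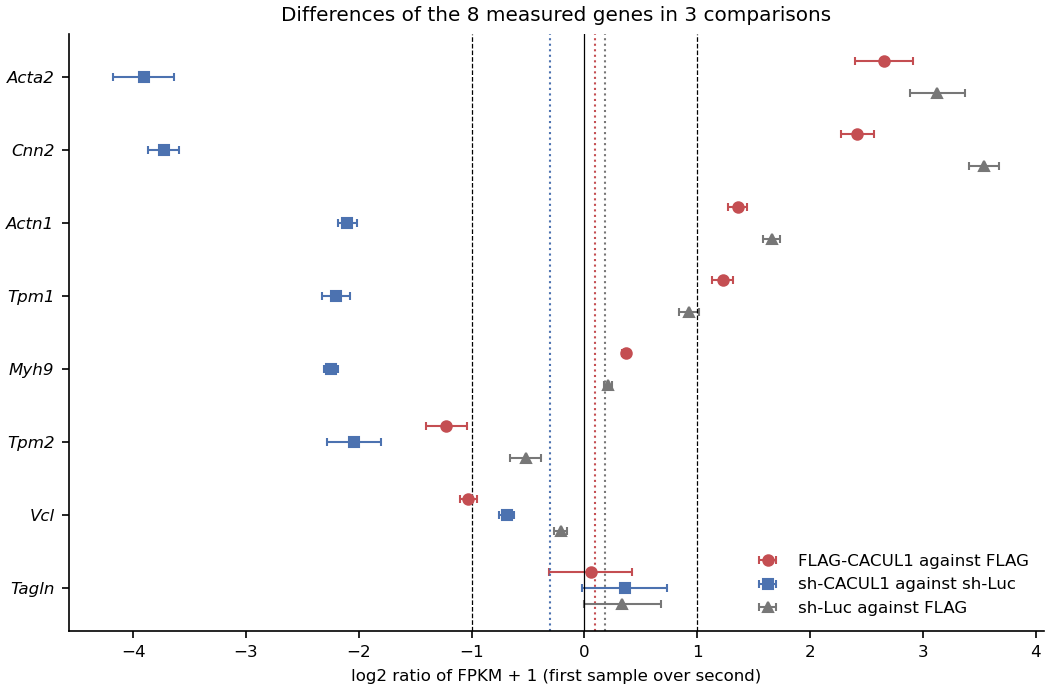
Log2 ratios of FPKM + 1 for the 8 genes in the 3 comparisons, with 95% counting half-widths as error bars. Dashed lines mark 2-fold and dotted lines the median of all genes in each comparison. Acta2 and Cnn2 had the largest ratios in each of the 3, and 6 genes lay left of the 2-fold line for sh-CACUL1 against sh-Luc.

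Because the controls differed, each condition was also set beside the other control. FLAG-CACUL1 against sh-Luc gave log2 ratios of -0.47 for Acta2, -1.13 for Cnn2, -0.30 for Actn1, 0.30 for Tpm1, 0.16 for Myh9, -0.70 for Tpm2, -0.82 for Vcl and -0.28 for Tagln. Acta2, Cnn2 and Actn1 were therefore above FLAG and below sh-Luc in FLAG-CACUL1, and Tpm2 and Vcl were below both controls. sh-CACUL1 against FLAG gave -0.78 for Acta2, -0.18 for Cnn2, -0.44 for Actn1, -1.27 for Tpm1, -2.03 for Myh9, -2.56 for Tpm2, -0.90 for Vcl and 0.70 for Tagln. Tpm1, Tpm2 and Myh9 were thus at least 2-fold below both controls in sh-CACUL1, whereas the low Acta2, Cnn2 and Actn1 of sh-CACUL1 were within 2-fold of FLAG.

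The patterns were compared after the mean over the 4 samples had been taken from each gene's log2(FPKM + 1). The gene nearest to the median pattern of the 8 was Tpm1, at a Euclidean distance of 0.29, followed by Myh9 at 0.64 and Actn1 at 0.68. Tpm2, Acta2, Vcl, Cnn2 and Tagln were farther off, at 1.59 to 2.21. The highest sample exceeded the lowest, in FPKM + 1, by 15.0-fold for Acta2, 13.3-fold for Cnn2, 5.90-fold for Tpm2, 5.66-fold for Tpm1, 5.29-fold for Myh9, 4.29-fold for Actn1, 2.04-fold for Vcl and 1.62-fold for Tagln.

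Among the 5972 genes that reached 5 FPKM in each of the 4 samples, the 5 whose pattern was nearest to the median of the 8 were Ddr2 at a distance of 0.225, Dse at 0.26, Cdk4 at 0.28, Cald1 at 0.30 and Prrx1 at 0.32. Ddr2 is a collagen receptor and was at 36.6 FPKM in FLAG against 67.2 in FLAG-CACUL1, and 60.8 in sh-Luc against 13.5 in sh-CACUL1. Dse is an enzyme of dermatan sulfate synthesis, Cdk4 a cell cycle kinase and Prrx1 a mesenchymal transcription factor. The row nearest to Acta2, at a distance of 0.68, was NM_001177652, for which no symbol was matched, with 11.0, 73.4, 143 and 11.2 FPKM. These distances rest on 4 samples and describe likeness only.

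**Figure D3:**
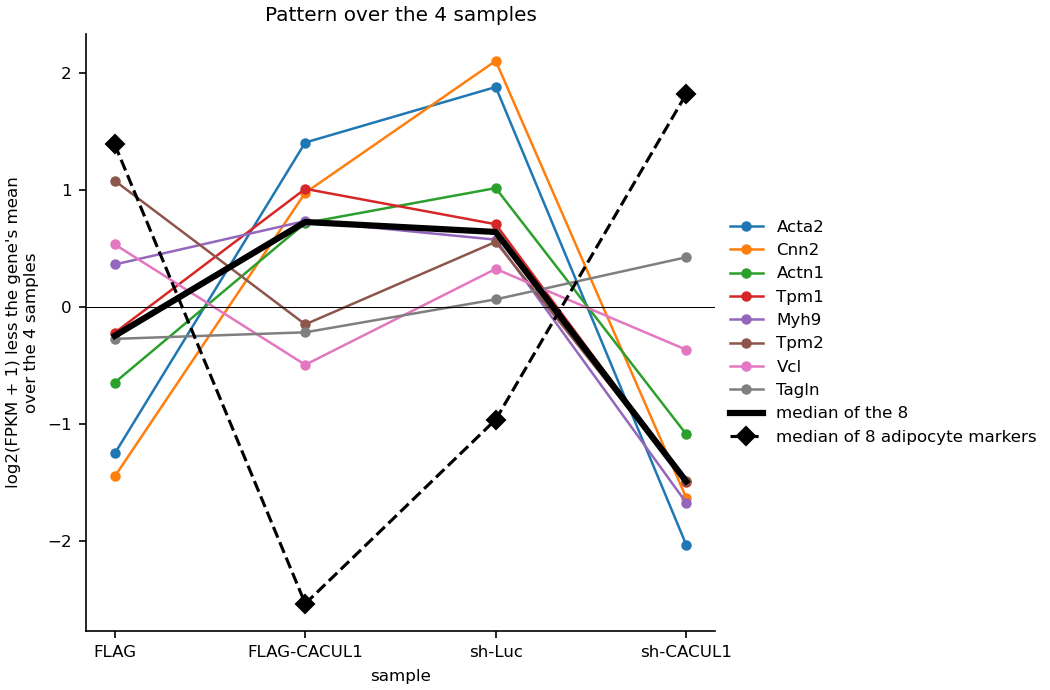
Log2(FPKM + 1) of each of the 8 genes less its mean over the 4 samples, with the median of the 8 (thick line) and of 8 adipocyte markers (dashed line), where lines only join the points of 1 gene. The median of the 8 genes was highest in FLAG-CACUL1 (0.73) and sh-Luc (0.64) and lowest in sh-CACUL1 (-1.49), and that of the adipocyte markers was lowest in FLAG-CACUL1 (-2.53) and highest in sh-CACUL1 (1.82).

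The median pattern of the adipocyte markers ran opposite to that of the 8 genes over the samples. This did not hold for each gene, as Tpm2 and Vcl were highest in FLAG and Tagln in sh-CACUL1. All 8 adipocyte markers (Adipoq, Fabp4, Plin1, Cidec, Cfd, Lpl, Pparg and Cebpa) were measured, and their summed FPKM was 8401 in FLAG against 882 in FLAG-CACUL1, and 1688 in sh-Luc against 17517 in sh-CACUL1. At the 2-fold cut-off, each of the 8 was lower in FLAG-CACUL1 than its level in FLAG, each was higher with the hairpin against CACUL1 than with that against luciferase, and 7 were lower in sh-Luc relative to FLAG. The same calls held for 7.22%, 4.94% and 8.58% of all genes, in that order. The 2 samples with high Acta2, Cnn2 and Actn1 were thus the 2 with the lower adipocyte sums. At least 7 of the 8 markers exceeded 1 FPKM in every sample, so none of the lines, labelled as preadipocytes, was without adipocyte transcripts on day 8. The 7 measured preadipocyte and fibroblast markers of 8 summed to 3626, 4094, 2013 and 303 FPKM. Col1a1, the type I collagen chain, made up most of each sum, at 2412, 2424, 1095 and 156 FPKM. At the 2-fold cut-off 4 of the 7 were higher and 1 was lower in FLAG-CACUL1 against FLAG, beside 7.51% and 7.22% of all genes. The median log2 ratio of the 7 was 1.58, and that of all genes was 0.09. In sh-CACUL1 against sh-Luc 4 were lower and 2, Dlk1 and Thy1, were higher, with a median of -1.77. In sh-Luc against FLAG 4 of the 7 were lower and 1 was higher, against 8.58% and 12.4% of all genes. The median of the 7 was -1.14, and 0.18 over all genes. The part of the adipocyte and fibroblast shares in the levels of the 8 genes was not tested.

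Markers of other cell types were summed in the same way. Of 9 smooth muscle markers, 7 were measured, 2 of them being Acta2 and Tagln. The list summed to 50.01 FPKM in FLAG against 39.8 in FLAG-CACUL1, and 55.5 in sh-Luc against 13.3 in sh-CACUL1, and Acta2 and Smtn, smoothelin, made up most of it in all samples but sh-CACUL1. Smtn was at 37.4, 9.66, 19.3 and 4.86 FPKM. The smooth muscle markers Myh11, Lmod1 and Synpo2 did not exceed 1.92, 1.01 and 0.05 FPKM. Of 6 skeletal muscle markers 1 was measured, Des, which is also in the smooth muscle list, at 8.35, 5.94, 1.13 and 4.04 FPKM. Of 4 endothelial markers 1 was measured, Pecam1, which did not exceed 0.301 FPKM. The 2 measured of 4 macrophage markers summed to 16.8 FPKM in FLAG and to between 1.08 and 1.84 in the other samples. Nearly all of the FLAG sum was Cd68, at 16.2 FPKM, while Csf1r was at 0.607. The part of these markers in the levels in FLAG was not tested.

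Of 19 actin assembly genes, all measured, 8 were at least 2-fold lower in sh-CACUL1 than in sh-Luc, against 16.4% of all genes. None was higher, and the median log2 ratio was -0.77. The count of lower genes was 3 under quantile normalization and 1 under median-of-ratios scaling, against 1084 and 1016 of all 13085 genes. Dstn, destrin, which severs actin filaments, was at 67.4 FPKM in FLAG against 422 in FLAG-CACUL1, and 104 in sh-Luc against 49.6 in sh-CACUL1, so it was high in FLAG-CACUL1 alone (log2 ratio 2.63 against FLAG). Its -1.05 in the hairpin comparison became -0.61 with median-of-ratios scaling. Pfn1, profilin, which supplies actin monomers for growth, was at 272, 548, 642 and 315 FPKM, and its ratios of 1.01 and -1.02 fell to 0.85 and -0.57 under the same scaling. Tmsb10, a thymosin that binds monomeric actin, was at 809, 1150, 565 and 198 FPKM (0.51 and -1.51).

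Of the 12 genes that control transcription of the apparatus, 11 were measured. Srf was at 4.53 FPKM in FLAG (3.86 to 5.26) against 7.54 in FLAG-CACUL1 (6.67 to 8.49), and 11.2 in sh-Luc (10.4 to 12.1) against 6.03 in sh-CACUL1 (5.27 to 6.85). It was within 2-fold of the matched control in both comparisons, with log2 ratios of 0.63 and -0.80. Mrtfa, the cofactor of Srf, was at 5.95, 9.96, 17.2 and 5.37 FPKM (0.66 and -1.51), and thus had the 2 highest samples of Acta2. Wwtr1, which encodes TAZ, was at 27.0, 23.4, 31.1 and 10.0 FPKM (-0.20 and -1.54). Fhl2, a LIM protein that binds SRF, was at 2.99, 7.16, 23.9 and 13.3 FPKM (1.03 and -0.80), and its 1.03 became 0.91 under median-of-ratios scaling. In the hairpin comparison 2 of the 11, Mrtfa and Wwtr1, were at least 2-fold lower, near the 16.4% of all genes, and none was higher. In the overexpression comparison 1 was higher and 1 lower, against 7.51% and 7.22% of all genes.

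The 8 other targets of MRTF, SRF or YAP were chosen as genes that do not build the apparatus, and 6 were measured. In sh-CACUL1 against sh-Luc 4 of the 6 were at least 2-fold lower, against 16.4% of all genes. None was higher, and the median log2 ratio was -1.56. The count of lower genes was 3 under quantile normalization and under median-of-ratios scaling, against 1084 and 1016 of all 13085 genes. In FLAG-CACUL1 against FLAG 1 was higher and 2 were lower, against 7.51% and 7.22% of all genes, with a median of -0.84. Thbs1, thrombospondin 1, was at 12.6 FPKM in FLAG against 47.4 in FLAG-CACUL1, and 75.0 in sh-Luc against 10.7 in sh-CACUL1 (1.83 and -2.70) and so had the sample order of Acta2. Ccn1, a matricellular protein, was at 59.6, 3.87, 94.5 and 18.7 FPKM (-3.64 and -2.28). Junb, a subunit of the AP-1 transcription factor, was at 51.9, 30.9, 33.5 and 7.92 FPKM (-0.73 and -1.95). The targets outside the apparatus thus had no common order in the FLAG pair, where the medians of the 8 genes and of this list lay on opposite sides of 0.

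**Figure D4:**
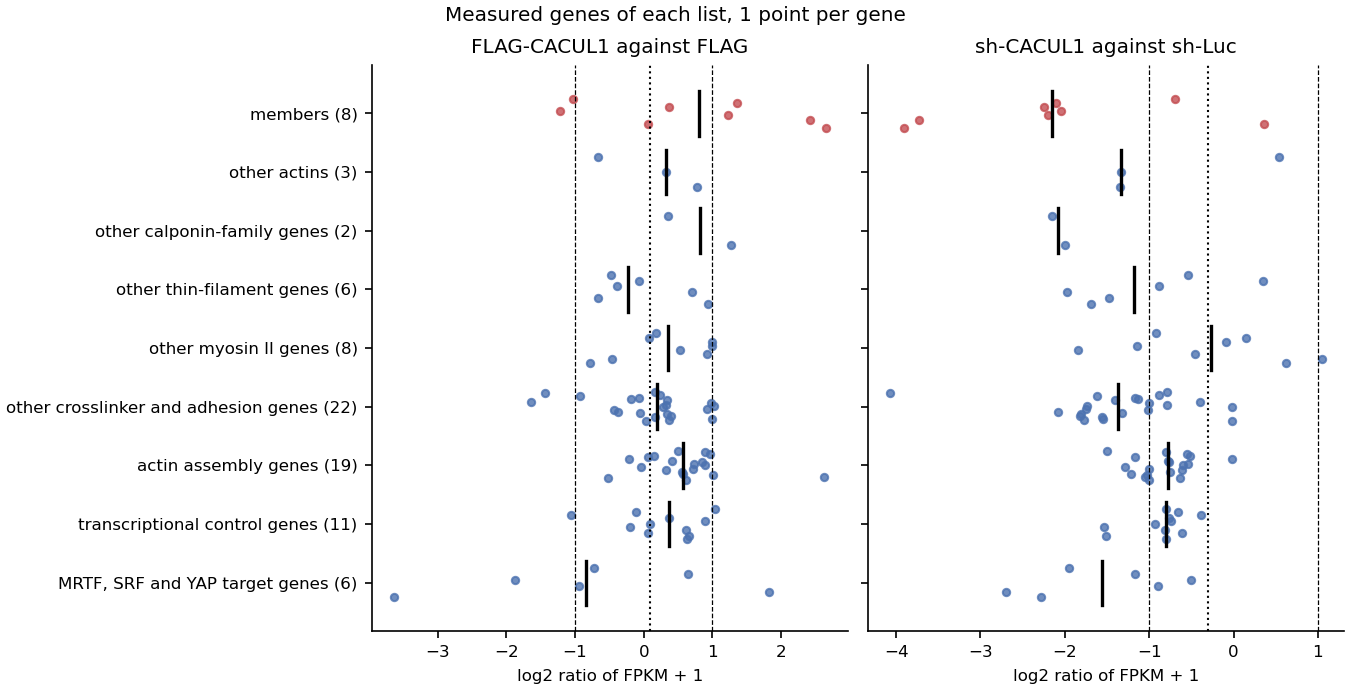
Log2 ratios of FPKM + 1 for the 8 genes (red) and the measured genes of 8 related lists (blue), 1 point per gene, with the median of each list as a bar, 2-fold as dashed lines and the median of all genes as a dotted line. In sh-CACUL1 against sh-Luc the medians ran from -2.15 for the 8 genes to -0.27 for the myosin II list, which lies at 0.17 under median-of-ratios scaling.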

How the data were processed

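Total RNA of 4 lines of 3T3-L1 cells, 1 sample per group, was made into mRNA libraries and sequenced by a company. The authors deposited FPKM values for 13110 rows named by RefSeq transcripts, and the submitters' processing notes name build mm10. The aligner, the FPKM software, any scaling across samples and any filter are not given in the sources used here. No row was at 0.

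Symbols were taken first from the RefSeq cross-references of GENCODE M21 (12914 rows) and then from the RefSeq gene table (149 rows), which left 47 rows under their identifier. The 50 rows that shared 25 symbols were summed. Fold changes were computed on log2(FPKM + 1), which understates those of low genes, with the 2-fold cut-off that the study used. Depth was estimated from the spacing of low FPKM among single-transcript rows of 1500 bases or more, with 150 bases taken off each length, and gave the counting intervals. Log2 half-widths are approximate.

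The members, the 8 related lists and the markers were chosen with earlier results of these data known. A further list and 1 further gene of a list are not reported here. Besides the members, Srf, Actb, Actg1 and Cacul1, the text names at most 3 genes per related list, those with the largest summed log2 differences among genes at least 2-fold different and at 5 FPKM or more in a sample, and the nearest patterns. The other named genes (Myh10, Myh11, Col1a1, Dlk1, Thy1 and further markers) came from the marker lists or were named after their values were seen.

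The 9 alternatives were other pseudocounts (0.1 FPKM and none), a filter of 1 FPKM in all 4 samples, quantile normalization, median-of-ratios scaling, scaling to the sum of FPKM, the highest row per symbol, the other control and a 3-fold cut-off. The functions were tested on simulated data. Python 3.11.15 was used with numpy 2.4.6, pandas 2.3.3, scipy 1.17.1 and matplotlib 3.10.9.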

Additional observations from a re-analysis of the deposited data

How the results depend on the processing

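The 15 member differences of at least 2-fold in the 3 comparisons remained so, in the same direction, with each other pseudocount, filter, scaling and row choice. In FLAG-CACUL1 against FLAG the 6 members changed became 2 (2 higher, 0 lower) at a 3-fold cut-off, against 5.07% of all genes. Against sh-Luc 1 member was changed (0 higher, 1 lower), beside 9.90% of all genes, and Acta2 (-0.47), Cnn2 (-1.13) and Actn1 (-0.30) reversed. The median of 0.80 was 1.23 with at least 1 FPKM in all 4 samples, which leaves out Tagln, 0.65 with median-of-ratios scaling and -0.39 against sh-Luc. In sh-CACUL1 against sh-Luc the 6 lower members became 3 against FLAG, where 2016 of all 13085 genes were lower. The members' median of -2.15 was -1.90 with quantile normalization, -1.71 with median-of-ratios scaling and -0.84 against FLAG. In sh-Luc against FLAG the 3 members changed became 4 in some settings. The added member was Tagln (1.13) without a pseudocount, and Tpm1 with quantile normalization (1.01) and with scaling to the sum (1.11). Of all genes, 36.0%, 19.0% and 29.1% were changed in these settings, in that order. The members' median of 0.63 was 0.92 with a pseudocount of 0.1, 1.04 without one, 0.93 with the filter, 0.43 with median-of-ratios scaling and 0.88 with scaling to the sum. Beyond the filter the cause was not tested. Of the 12 member calls in both conditions, 9 kept their direction against the other control and 3 (Tpm1, Tpm2 and Myh9 in sh-CACUL1) kept both direction and 2-fold size. Among member values under 2-fold, Tagln in FLAG-CACUL1 against FLAG turned to -0.004 with quantile normalization and Myh9 in sh-Luc against FLAG to -0.08 with median-of-ratios scaling.

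Over all genes, sh-CACUL1 against sh-Luc had 647 higher and 2141 lower genes as deposited, 1178 and 1084 with quantile normalization, and 1186 and 1016 with median-of-ratios scaling. No paired analysis was possible because each group had 1 sample. Leaving out a replicate was not possible for the same reason. With 1 line per group the spread between cultures is unknown, and counting error limits Tagln most, at 6 to 24 fragments.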
